A study of Mus musculus with 12 samples.

Results

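The genes described here encode the machinery of oxidative phosphorylation. They were picked by symbol from all gene rows of both count tables: those beginning with Nduf, Uqcr, Sdha to Sdhd, Cox4 to Cox8 or Atp5, and the protein-coding mt- genes, without antisense genes and without symbols marked as pseudogenes. Symbols of RefSeq were searched as well, which added 2 genes listed under another name, Usmg5 (Atp5md in RefSeq) and Ndufb1-ps (Ndufb1 in RefSeq). GENCODE M21 types Ndufb1-ps as a long noncoding RNA of a bidirectional promoter. This gave 117 genes, of which 115 were among the 35697 rows of the 2018 table and all 117 among the 55637 rows of the 2022 table. Atp5o counts as 2 of the 117, because 2 overlapping Ensembl genes bear that symbol, and 1 of them is absent from the 2018 table. Complex I had 55 of them, complex II 8, complex III 9, complex IV 24 and complex V 21, and 104 lie in the nuclear and 13 in the mitochondrial genome. Of the 117, 100 are subunits, 12 are assembly factors 4 are annotated as processed pseudogenes although their symbols do not say so (Ndufa11b, Ndufb4c, Ndufs6b and Cox6c2), and 1, Atp5s, is a factor of the ATP synthase outside its core structure. Cyc1, a subunit of complex III whose symbol does not start with these letters, is described with the electron carriers.

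The respiratory chain sits in the inner mitochondrial membrane. Complexes I and II take electrons from NADH and succinate, complex III passes them on to cytochrome c, and complex IV gives them to oxygen. Complexes I, III and IV pump protons, and complex V, the ATP synthase, uses the proton gradient to make ATP. Each complex apart from complex II joins subunits from both genomes, and neurons depend heavily on this pathway for the energy of ion pumping and synaptic transmission.

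All mice were adult male C57BL/6J wild types. TBI was made by controlled cortical impact (CCI), a blow to the exposed cortex with a depth of 1.5 mm and a velocity of 1.5 m/s, and sham mice had the same surgery without the blow. Brain tissue of 3 sham and 3 TBI mice was sequenced in a 2018 batch, the TBI mice at 7 days after injury, and tissue of 3 injured control mice and 3 injured mice given zileuton, an inhibitor of 5-lipoxygenase (5-LOX), at 10 mg/kg per day, in a 2022 batch. The study describes the tissue as pericontusional and the injured controls as vehicle-treated, whereas the labels call the latter only injured, and the source labels of the zileuton mice give 7, 8 and 9 days although their library names give 7. The first comparison asks how injury, and the second how zileuton in injured mice, bears on these transcripts. Each comparison lies within 1 batch, and no group was tested against a group of the other batch.

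Library totals were 42929862 to 48684674 counts in 2018 and 27845562 to 35453257 in 2022. Gfap, the astrocyte filament that rises in gliosis, was at 188 ± 41.6 CPM (counts scaled to the TMM-corrected library size; mean ± SD, n = 3) in sham and 2480 ± 211 CPM in TBI mice (n = 3). Sham replicate 1 carried 1080 CPM of choroid plexus markers in sum against 18.7 and 55.0 CPM in sham replicates 2 and 3 and 1160 to 1340 CPM in TBI mice. In 2022 the same markers summed to 11.0, 478 and 1060 CPM in the controls and 1480, 1280 and 14.9 CPM in the zileuton mice. Each library is taken as a separate mouse from its label, and the part of these markers in the results was not tested.

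Many mitochondrial mRNAs cannot be separated from nuclear copies of mitochondrial DNA, which bears on every value of those genes. On GRCm38, GENCODE M21 annotates unprocessed pseudogenes on chromosome 1 that carry the full coding sequence of mt-Co2 (Gm28661, 100% identity over 681 bases), mt-Atp6 (Gm10925, 100% over 678 bases), mt-Co3 (Gm28437, 100% over 783 bases), mt-Nd4l (Gm10222, 100% over 294 bases) and mt-Nd3 (Gm28438, 99.71% over 345 bases). The copy of mt-Co3 spans 24613189 to 24613971 on the minus strand of chromosome 1. The first 100 bases of mt-Co3 and mt-Co2, read from the GENCODE M21 transcripts, are printed with those of their copies to show that a read from this part of the message has 2 equal places in the genome, and no base is in capitals because the sequences differ at 0 of 100 positions.
mt-Co3: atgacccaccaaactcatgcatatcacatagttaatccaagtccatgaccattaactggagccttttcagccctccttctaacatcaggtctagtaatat
Gm28437: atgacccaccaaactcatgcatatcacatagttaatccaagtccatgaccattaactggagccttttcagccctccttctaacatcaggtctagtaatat
mt-Co2: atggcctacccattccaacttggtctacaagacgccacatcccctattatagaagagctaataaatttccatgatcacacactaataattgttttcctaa
Gm28661: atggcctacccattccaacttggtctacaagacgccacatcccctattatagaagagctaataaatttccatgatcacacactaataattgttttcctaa

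After TBI the summed level of the nuclear genes of the chain overlapped with that in sham mice, whereas the summed mitochondrial mRNAs were lower in every TBI mouse. The 102 nuclear genes summed to 14065, 13509 and 13948 CPM in sham mice and 13745, 13169 and 14648 CPM in TBI mice. The groups overlapped, and the ratio of their means was 1.00. The 13 mitochondrial mRNAs summed to 52121, 48529 and 48140 CPM in sham mice and 42162, 42314 and 41095 CPM in TBI mice, without overlap and with a ratio of 0.844. They made up 4.74% to 5.08% of the counts of a sham library and 4.12% to 4.39% of those of a TBI library. The mRNAs with the nuclear copies listed above added little to these sums. In sham libraries none of them exceeded 4412 counts, where mt-Co1 had 860902 to 893987.

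**Figure D1:**
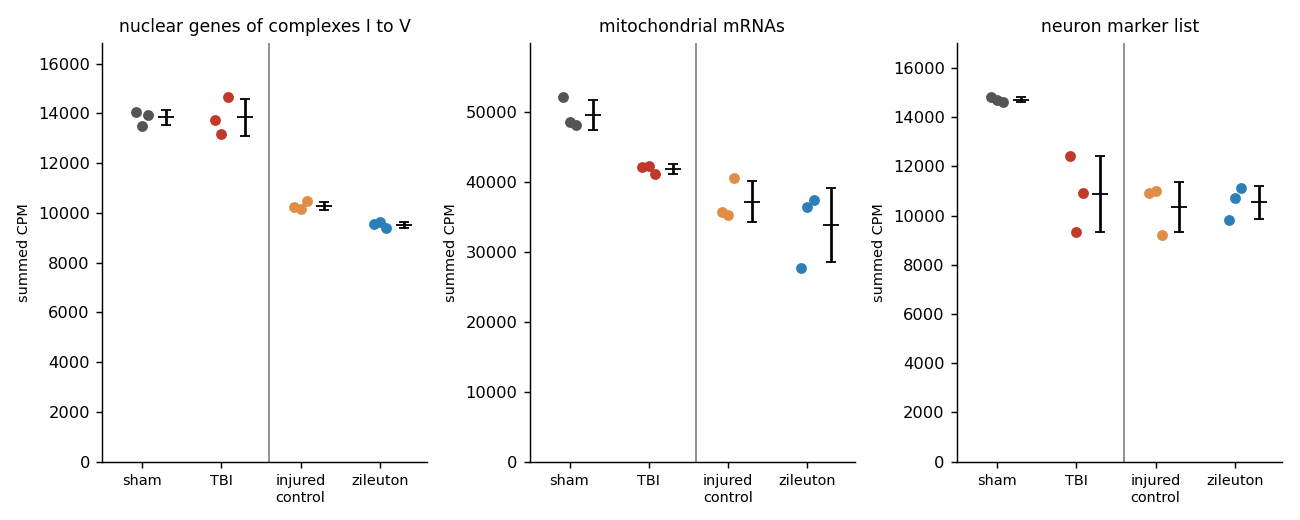
Summed CPM (y axis, from 0) of the nuclear genes of complexes I to V, of the 13 mitochondrial mRNAs and of 15 neuron marker genes in each library of the 4 groups, with points for libraries and bars for the mean and SD (n = 3). The vertical line parts the 2018 from the 2022 batch, and mitochondrial mRNAs of the TBI mice lie at 41095 to 42314 CPM, under all sham mice.

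In edgeR's quasi-likelihood test with Benjamini-Hochberg adjustment, 113 members had enough counts to be tested, and 13 had an adjusted p under 0.05, 9 higher and 4 lower after TBI. That is 11.5% of the members tested, against 28.0% of the 19536 genes tested (16.8% higher and 11.2% lower). The median of their log2 fold changes was -0.006, and that of all genes 0.017. Of the 113, 57 were below 0 (48.5% of all genes were), and 110 lay within 0.5 of 0 on the log2 scale, as did 69.7% of all genes. At an unadjusted p under 0.05 13 were higher and 12 lower, where 39.6% of all genes passed (22.6% higher and 17.1% lower). The groups did not overlap in 19 members that were higher (24.6% of all genes) and in 16 that were lower (19.8%). By genome, 8 of 100 nuclear members rose and 1 fell (median 0.005), and 1 of 13 mitochondrial members rose and 3 fell (median -0.181). The split of the calls turned with the scaling: 7 higher and 6 lower with DESeq2's size factors, 13 higher and 1 lower with library totals, 14 higher and 0 lower with limma on log2(FPKM + 1), and 2 higher and 13 lower once a trend with gene length was taken out of each library. Without sham replicates 1, 2 and 3 the count of calls was 4, 3 and 3, and without TBI replicates 1 and 3 it was 8 and 7. Fold changes fell weakly with gene length, with Spearman's rho of -0.115 over all genes and -0.333 over the 113 members, values that share the same 6 libraries. The 26 nuclear members under 1000 bases had a median of 0.10, and all genes of that length one of 0.102. Nuclear members of 1000 to 2000 bases had 0.026 against 0.092, and those of 2000 bases or more -0.025 against -0.004. From short to long, 30.8%, 32.4% and 73.0% of nuclear members were below 0, against 43.8%, 40.8% and 50.4% of all genes.

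**Figure D2:**
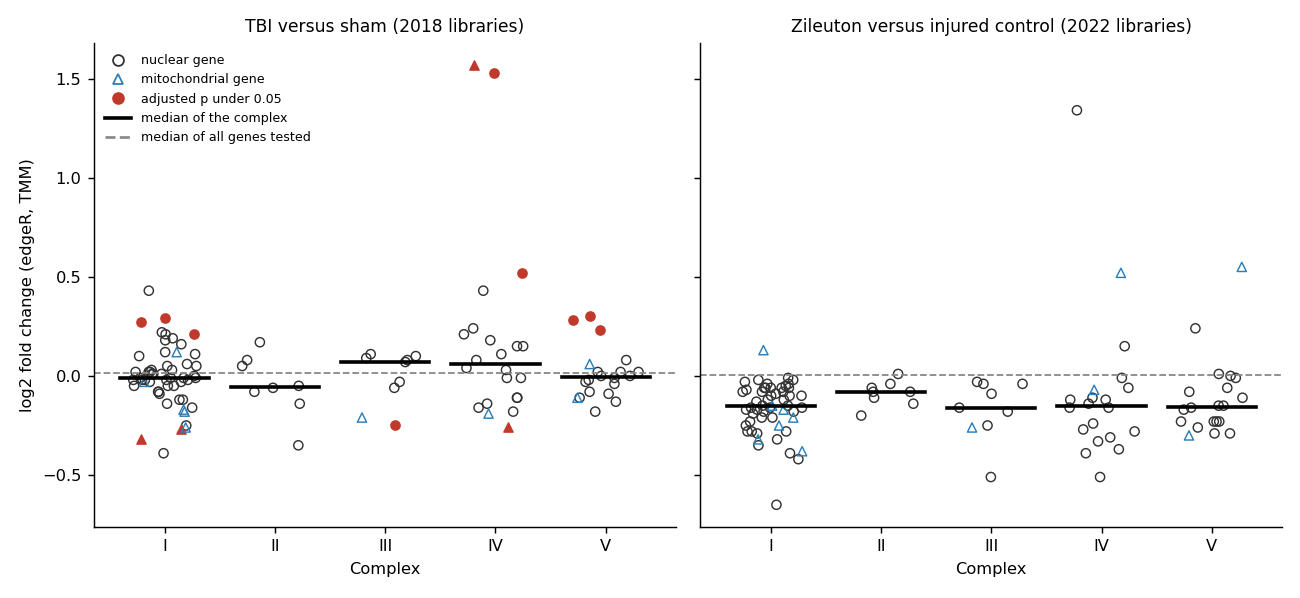
Log2 fold change (y axis, edgeR with TMM scaling) of each member tested, by complex, for TBI versus sham on the left and zileuton versus injured control on the right. Circles are nuclear and triangles mitochondrial genes, filled red where the adjusted p was under 0.05, with the median of each complex as a bar and that of all genes as a dashed line. On the right 101 of 110 members lie below 0.

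Complex I takes electrons from NADH at its flavin-bearing tip and hands them to ubiquinone through a chain of iron-sulphur clusters. None of its nuclear core subunits passed the test after TBI. Ndufv1, which holds the flavin, was at 170, 154 and 161 CPM in sham and 155, 150 and 175 CPM in TBI mice (log2 fold change -0.01, standard error 0.0821, adjusted p = 0.923). Ndufs1, the largest iron-sulphur subunit, was at 142, 120 and 134 against 119, 115 and 125 CPM. The groups overlapped in both genes. Ndufs8, another iron-sulphur subunit, had a log2 fold change of 0.01 (standard error 0.0850). Over the 14 core subunits 0 rose and 2 fell (14.3%, against 11.2% of all genes called lower), both of them mitochondrial.

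The supernumerary subunits of complex I surround that core and help to assemble and hold it. Of 30 tested, 3 rose (10.0%) and 0 fell, where 16.8% of all genes were called higher and 11.2% lower. Ndufa1, a small membrane subunit needed for assembly, rose from 84.9, 79.3 and 86.8 CPM to 99.9, 98.9 and 107 CPM (log2 fold change 0.29 with a standard error of 0.0709, adjusted p = 0.017). Ndufa7 rose from 72.6, 66.9 and 71.7 to 83.8, 78.8 and 91.4 CPM (0.27, adjusted p = 0.0345). Ndufa3, named because it passed although it lies outside the 2 largest rises of its complex, went from 131, 123 and 127 to 147, 150 and 145 CPM (0.21, adjusted p = 0.0377). In all 3 the lowest TBI mouse lay above the highest sham mouse, and the rises came to well under a doubling. All 3 calls were lost with the length trend removed and without any 1 of the 3 sham libraries. The call of Ndufa7 was lost in 4 of 14 alternatives and without 5 of the 6 libraries in turn (adjusted p up to 0.151 and 0.139), that of Ndufa3 in 5 of 14 and without each of the 6 (up to 0.264 and 0.17), and the adjusted p of Ndufa1 reached 0.112 and 0.080. Ndufa3 shares exon sequence with Tfpt on the other strand, and whether counting used the strand is not given in the sources used here.

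Complex II, succinate dehydrogenase, belongs to the citric acid cycle as well and is encoded by nuclear genes alone. Of its 8 genes 0 passed the adjusted threshold, against 28.0% of all genes tested. In edgeR 1 higher and 1 lower had an unadjusted p under 0.05 (22.6% and 17.1% of all genes), and DESeq2 called 0 of the 8. Sdha, the flavoprotein that oxidises succinate, was at 513, 470 and 453 CPM in sham and 426, 440 and 440 CPM in TBI mice, without overlap (log2 fold change -0.14, standard error 0.0759, adjusted p = 0.215). Sdhb, the iron-sulphur subunit, was at 135, 124 and 131 against 117, 113 and 145 CPM.

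Complex III moves electrons from ubiquinol to cytochrome c. Uqcrc2, a core protein of its matrix side, fell from 186, 167 and 179 CPM to 154, 137 and 157 CPM (log2 fold change -0.25 ± 0.0801 SE, adjusted p = 0.0465) and was the 1 nuclear member called lower. The call was lost in 6 of 14 alternatives and without 4 of the 6 libraries in turn (adjusted p up to 0.113 and 0.123). Its partner Uqcrc1 was at 198, 188 and 204 against 179, 179 and 206 CPM (-0.06, adjusted p = 0.606), and Uqcrfs1, the Rieske iron-sulphur protein, at 132, 124 and 131 against 126, 119 and 136 CPM (-0.03). Uqcrc2 shares exon sequence with Pdzd9 on the other strand.

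Complex IV, cytochrome c oxidase, held the largest nuclear rise and several isoforms with a known tissue preference. Cox6b2 is known as the testis-type partner of Cox6b1, a subunit that faces the intermembrane space. It rose from 3.00, 2.85 and 1.70 CPM in sham mice to 7.19, 7.29 and 7.34 CPM in TBI mice (log2 fold change 1.53, standard error 0.226, adjusted p = 0.0014), and it lies on chromosome 7 (4751792 to 4753094, minus strand, GRCm38). The 3 TBI mice were nearly equal and all well above sham, and the call held in 14 of 14 alternatives and without each library in turn (adjusted p up to 0.0151 and 0.00589). Cox6b1, the general form, was at 227, 233 and 223 against 235, 219 and 242 CPM (0.03, adjusted p = 0.823). In FPKM, which takes gene length into account, Cox6b2 averaged 4.45 and Cox6b1 324 over the 6 libraries, so the rise was in the minor form.

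Cox7a1, known as the heart and skeletal muscle form of subunit 7a, also rose, from 10.5, 8.08 and 10.4 CPM to 14.2, 13.3 and 13.9 CPM (log2 fold change 0.52 ± 0.133 SE, adjusted p = 0.0198). The groups did not overlap, but the call was lost with the length trend removed (adjusted p = 0.0543) and without sham replicate 2, sham replicate 3 or TBI replicate 1 (up to 0.0602). Its more abundant partner Cox7a2 stood at 172, 162 and 173 against 151, 140 and 156 CPM, lower in every TBI mouse (-0.18, adjusted p = 0.096). Cox7a2l was at 126, 130 and 132 against 136, 130 and 146 CPM. The other muscle-type forms did not pass the test: Cox6a2 was at 22.8, 20.5 and 23.9 against 21.5, 23.7 and 21.6 CPM, and Cox8b at 11.9, 9.55 and 11.9 against 13.4, 13.1 and 13.0 CPM (0.24, adjusted p = 0.178). Skeletal muscle markers summed to 23.3 to 26.9 CPM in sham and 22.1 to 27.2 CPM in TBI mice, with 1 of 8 higher and 1 lower, and their part in the value of Cox7a1 was not tested.

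Of the remaining forms, Cox4i2, the lung and hypoxia form of subunit 4, stayed low at 1.62, 2.20 and 1.56 against 1.99, 1.79 and 2.46 CPM, where Cox4i1 had 447, 452 and 436 against 488, 447 and 504 CPM. Ndufa4l2, a hypoxia-induced relative of the complex IV subunit Ndufa4, was at 1.27, 1.32 and 1.62 against 2.15, 1.77 and 1.74 CPM (0.43, standard error 0.244, adjusted p = 0.231), and Ndufa4 at 274, 258 and 289 against 259, 234 and 253 CPM. Cox6a1 had a log2 fold change of 0.15, Cox8a of -0.11 and Cox5a of -0.01, with adjusted p of 0.242, 0.459 and 0.930. Cox6a1 and Cox8a, at a mean of 855 and 747 FPKM, had the highest levels per length of all nuclear members.

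Complex V joins a rotating ring of c subunits in the membrane to a catalytic F1 head. In the larger subunits of the head the groups overlapped: Atp5b, its catalytic beta subunit, was at 1300, 1190 and 1240 CPM in sham and 1210, 1190 and 1310 CPM in TBI mice (log2 fold change -0.01, standard error 0.0792). Atp5a1, the alpha subunit, was at 902, 800 and 870 against 763, 793 and 829 CPM (-0.11, adjusted p = 0.348), and Atp5c1, the central shaft, had a log2 fold change of 0.02. Atp5e, the small epsilon subunit at the foot of that shaft, rose from 157, 162 and 151 to 187, 178 and 206 CPM (0.28, standard error 0.0768, adjusted p = 0.0243). The groups of Atp5e did not overlap, unlike those of the 3 larger head subunits, but its call was lost in 2 of 14 alternatives and without 4 of the 6 libraries in turn (adjusted p up to 0.122 and 0.106).

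The c subunit is made by 3 genes whose proteins are the same after their import signals are removed. Atp5g2 rose from 68.5, 64.5 and 71.9 to 82.9, 83.9 and 84.8 CPM (log2 fold change 0.30 ± 0.0694 SE, adjusted p = 0.0131). Atp5g1 was at 176, 175 and 176 against 164, 160 and 159 CPM (-0.13, adjusted p = 0.17) and Atp5g3 at 253, 237 and 245 against 232, 237 and 267 CPM (0.00). Thus the TBI mice were higher than sham in Atp5g2, lower in Atp5g1 without passing the test, and overlapping in Atp5g3, which had the highest mean of the 3 in FPKM (112). Atp5k, the e subunit of the membrane part, passed as well, outside the 2 largest rises, at 79.3, 72.8 and 78.9 against 93.9, 86.7 and 90.9 CPM (0.23, adjusted p = 0.0385). Its call was lost in 5 of 14 alternatives and without 5 of the 6 libraries in turn (adjusted p up to 0.238 and 0.167), and that of Atp5g2 with the length trend removed (0.0608) and without sham replicate 1 or 2 (up to 0.0661). Atpif1, the inhibitor that stops the enzyme from running backwards and no member by symbol, averaged 59.4 ± 1.41 CPM in sham and 56.0 ± 3.94 CPM in TBI mice (SD, n = 3 each; adjusted p = 0.451).

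**Figure D3:**
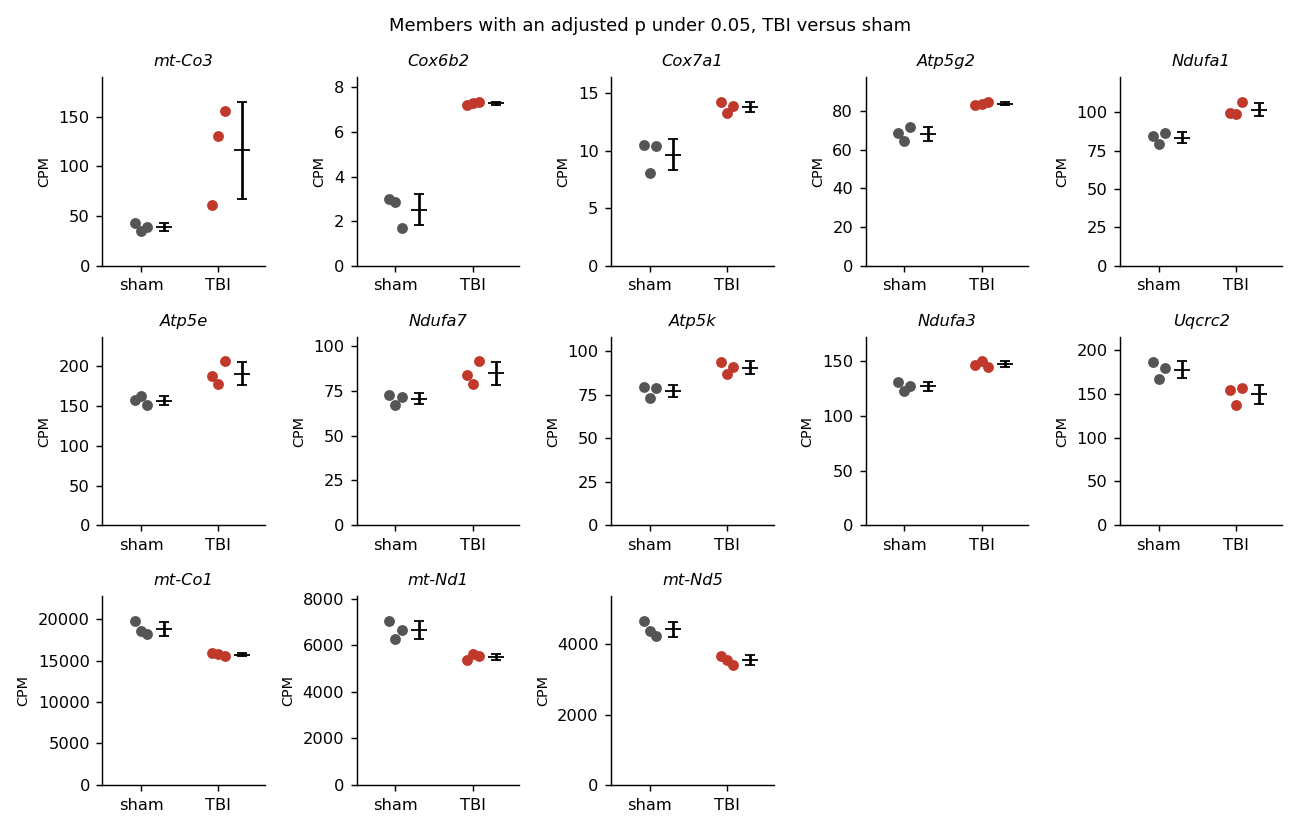
CPM (y axis, from 0 in each panel) of the 13 members with an adjusted p under 0.05 in TBI versus sham, ordered by fold change, with a point for each library and the mean ± SD (n = 3) beside the points. Cox6b2 lies at 1.70 to 3.00 CPM in sham and 7.19 to 7.34 CPM in TBI mice, while mt-Co3 spreads from 61.3 to 156 CPM among the TBI mice.

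The 13 mitochondrial mRNAs encode the membrane core of complexes I, III, IV and V. Leaving out mt-Atp8, which overlaps mt-Atp6, 7 have no annotated full-length copy of at least 99% identity. Of these, mt-Nd4 has a partial copy (Gm28439, 100% over 876 bases) and mt-Co1 another (Gm29216, 99.79% over 483 bases). A more distant copy of mt-Co1 on chromosome 2, Gm13340, aligns over its full 1545 bases at 97.61% identity. In 2018 mt-Nd4 held 99.7% and mt-Co1 99.6% of the counts shared with that copy. For all 7 the highest TBI value lay below the lowest sham value, and 3 passed the test. Of all genes tested, 19.8% were lower without overlap and 11.2% were called lower. mt-Nd5, a proton-pumping subunit of complex I, fell from 4670, 4380 and 4230 CPM to 3680, 3560 and 3400 CPM (log2 fold change -0.32 ± 0.0822 SE, adjusted p = 0.0195). mt-Nd1, at the ubiquinone site, fell from 7050, 6270 and 6670 to 5380, 5620 and 5530 CPM (-0.27, adjusted p = 0.0381). mt-Co1, the catalytic subunit of complex IV and the member with the most counts, fell from 19800, 18600 and 18200 to 15900, 15800 and 15500 CPM (-0.26, adjusted p = 0.044).

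The other 4 of these mRNAs were close behind. mt-Nd2 had a log2 fold change of -0.26 (adjusted p = 0.0542), mt-Cytb, the core of complex III, of -0.21 (0.0849), mt-Nd6 of -0.18 (0.105) and mt-Nd4 of -0.17 (0.165). All 7 stayed below 0 in all alternatives and with each library left out, but how many passed the test ranged from 0 to 7 of 7. None passed with limma on log2(FPKM + 1), nor without sham replicate 1, 2 or 3 or without TBI replicate 3, and all 7 passed with the length trend removed. mt-Nd5 and mt-Nd6 are encoded on opposite strands and overlap.

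The mRNAs with a full copy had far fewer counts and did not move together. mt-Co3, the third large subunit of complex IV, rose from 43.2, 35.2 and 39.0 CPM to 61.3, 131 and 156 CPM (log2 fold change 1.57 ± 0.287 SE, adjusted p = 0.00403), the reverse of mt-Co1. Its copy Gm28437 had 2241, 1558 and 2545 counts in sham and 1663, 6481 and 1550 counts in TBI mice, so that it was high in TBI replicate 2 alone. Together mt-Co3 and Gm28437 had 4187, 3185 and 4398 against 4678, 12871 and 8287 counts, and with the copies added to their mRNAs, an alternative chosen after the values were seen, the log2 fold change was 1.12 (adjusted p = 0.0258). When FPKM were compared by an equal-variance test (two-sided), the adjusted p of mt-Co3 was 0.137. In sham mice mt-Co1 had 860902 to 893987 counts and mt-Co3 1627 to 1946, although both encode subunits of 1 enzyme. Summed over the sham and TBI libraries, mt-Co3 and Gm28437 together had 37606 counts. Over the injured control and zileuton libraries, whose totals were smaller, the same pair had 1008805. The rise of mt-Co3 after TBI therefore rests on few counts for this message, and whether it holds for the whole message was not tested.

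mt-Co2 was at 72.8, 95.4 and 79.9 against 63.9, 62.8 and 90.2 CPM and mt-Atp6, the proton channel of complex V, at 54.8, 36.0 and 75.4 against 47.2, 51.2 and 55.9 CPM. mt-Nd3 and mt-Nd4l had log2 fold changes of 0.12 and -0.03. None of these 4 passed the test (adjusted p of 0.390, 0.760, 0.477 and 0.947), and their groups overlapped. mt-Atp8, which overlaps mt-Atp6, had only 1.35, 0.951 and 1.41 against 1.48, 1.17 and 1.21 CPM.

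**Figure D4:**
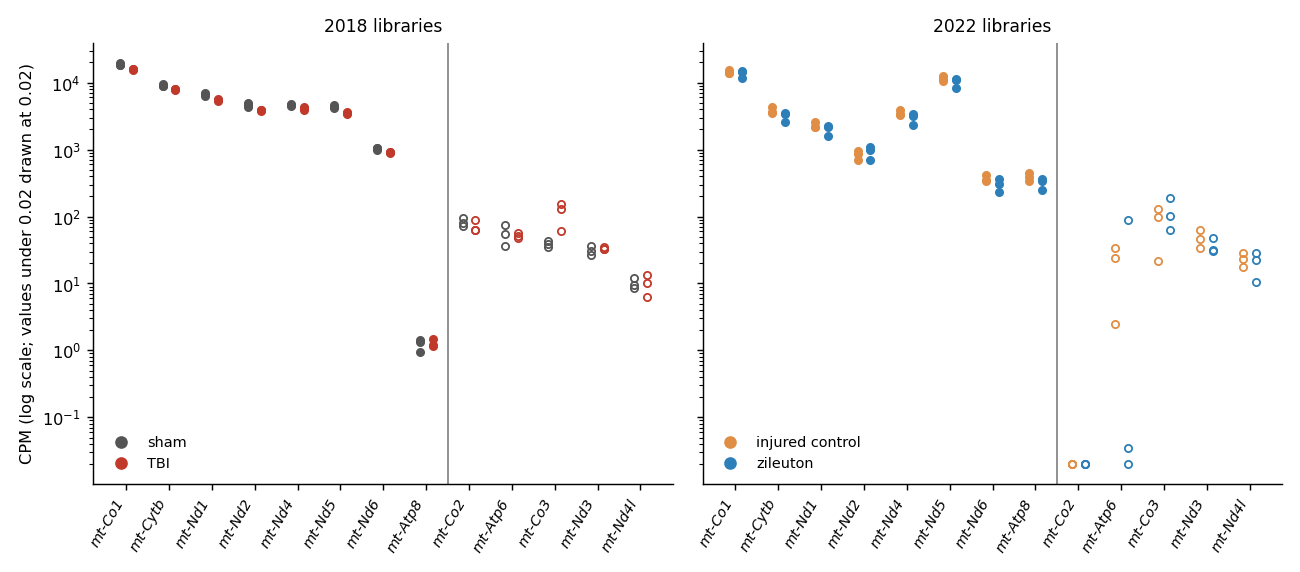
CPM (log scale) of the 13 mitochondrial mRNAs in each library, for the 2018 batch on the left and the 2022 batch on the right. Filled points are mRNAs without an annotated full nuclear copy, mt-Atp8 among them. Open points, right of the line, are the 5 with one. In sham mice the open points lie at or below 95.4 CPM, and in 2022 mt-Co2 is at 0 in all libraries, drawn at 0.02.

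Markers of the cells in the tissue also differed between sham and TBI mice. Of all genes tested, 16.8% were called higher and 11.2% lower. Of 15 neuron markers 7 were lower and 0 higher, and they summed to 14600 to 14800 CPM in sham and 9320 to 12400 CPM in TBI mice. Astrocyte markers summed to 3810 to 4260 against 7400 to 7740 CPM (6 of 7 higher), microglia and macrophage markers to 399 to 472 against 2150 to 3270 CPM (12 of 12 higher), and oligodendrocyte markers to 5500 to 6170 against 6390 to 11600 CPM (6 of 9 higher). Of 8 endothelial, 8 mural and 4 fibroblast markers 6, 3 and 3 were higher, while 2 of 4 fast-spiking interneuron markers and 3 of 5 red blood cell genes were lower. No marker was at 0 in every library. The part of these shifts in the mitochondrial values was not tested, and in bulk tissue fewer cells of a type cannot be told apart from less RNA per cell.

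Other genes of the pathway came from lists chosen for their roles, and their counts stand against 16.8% of all genes called higher and 11.2% called lower. Of 16 electron carriers and coenzyme Q genes, 4 rose and 1 fell. The 3 genes that pass electrons from fatty acid oxidation rose: the log2 fold change was 0.62 for Etfb, 0.49 for Etfa and 0.37 for Etfdh (adjusted p = 0.0199, 0.0025 and 0.00888). Coq8b rose too (0.51, adjusted p = 0.00693). Cycs, which encodes cytochrome c, fell from 186 ± 10.9 to 153 ± 7.42 CPM (SD, n = 3 each; -0.29, adjusted p = 0.0214), while Cyc1 of complex III was at 163 ± 7.47 and 152 ± 9.67 CPM (adjusted p = 0.352). Of the 12 assembly factors among the members 0 passed the adjusted threshold. Of these 12, 0 higher and 2 lower (16.7%) had an unadjusted p under 0.05 in edgeR, against 22.6% and 17.1% of all genes. Of 37 other assembly factors, Coa4 rose (0.91) and Ttc19 fell (-0.44).

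Among the genes of the pyruvate dehydrogenase and the citric acid cycle, 2 of 18 rose and 2 fell. The rises were Suclg2 (0.69) and Idh2 (0.46), and the falls Idh3a, of the NAD-linked enzyme (-0.30), and Dlat (-0.27). In glycolysis Hk2 rose from 6.09 ± 0.159 to 21.3 ± 2.51 CPM (1.81, adjusted p = 2.27e-05), while Hk1 (-0.36), Pfkm (-0.28) and Eno2 (-0.27) fell, among 18 genes. Of 8 nuclear regulators, the coactivators Ppargc1a and Ppargc1b fell, with log2 fold changes of -0.47 and -0.55 and adjusted p of 0.0024 and 0.0183, and Gabpa, which binds many promoters of the chain, rose (0.44, adjusted p = 0.0166). Gabpa shares exon sequence with the member Atp5j. Of 77 mitochondrial ribosomal proteins 6 rose and 2 fell, led by Mrps6 (0.70) and Mrps22 (-0.35), and of 10 carriers and channels Ckmt1, the brain mitochondrial creatine kinase, fell (-0.42). Of 15 genes for mitochondrial DNA copying and transcription 0 passed, with 1 higher and 0 lower at an unadjusted p under 0.05 (edgeR). At that p 22.6% of all genes were higher and 17.1% lower.

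Promoter sequence was not used in the choice of members. RefSeq promoters on GRCm38.p6 (250 bases before to 50 after the start) were found for 82 nuclear members. The motif of the nuclear respiratory factor NRF1, searched on both strands as GCGC and TGCGC with any 1 base between them, was present in 21 of them, or 25.6%, against 7.17% of 17491 protein-coding genes. For YY1 (AAGATGGC) the shares were 13.4% and 3.57%, for ERR alpha (TCAAGGTCA) 2.44% and 0.377%, and for GABPA (CCGGAAGT) 6.10% and 5.69%. These shares are given without a test. Of the 8 nuclear members that rose after TBI, 2 (25.0%) held the NRF1 motif, close to the share of all members, and 1 that of YY1. The 150 bases before the start are shown for these 2, with the motif in capitals, and for Cox6b2, the nuclear member with the largest rise, as 1 of the 6 without it. Atp5g2 (chr15:102671048-102671197, minus strand) and Atp5k (chr5:108434400-108434549, minus strand) each hold 1, and Cox6b2 (chr7:4753095-4753244, minus strand) holds none of the 4 motifs in this stretch.
Atp5g2: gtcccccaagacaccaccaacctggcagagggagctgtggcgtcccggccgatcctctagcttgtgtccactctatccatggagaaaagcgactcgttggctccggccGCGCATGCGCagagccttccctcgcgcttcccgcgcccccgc
Atp5k: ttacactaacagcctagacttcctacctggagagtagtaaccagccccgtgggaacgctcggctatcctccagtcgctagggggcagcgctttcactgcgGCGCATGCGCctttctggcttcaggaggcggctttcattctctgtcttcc
Cox6b2: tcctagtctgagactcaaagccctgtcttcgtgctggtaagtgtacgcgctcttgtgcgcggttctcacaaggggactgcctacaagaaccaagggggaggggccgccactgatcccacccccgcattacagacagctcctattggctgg

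In the 2022 batch most members were slightly lower in zileuton mice than in injured controls, but the difference moved with transcript length and 0 members passed the adjusted threshold. Of 110 members tested, 101 had a log2 fold change below 0, or 91.8% against 49.3% of all genes, with a median of -0.150 against 0.003. In edgeR 0 of the 110 and 0.0% of all 17363 genes had an adjusted p under 0.05, and DESeq2 called 2 members, Cox7a2 and Uqcrb, both lower (adjusted p = 0.0456 for each). At an unadjusted p under 0.05 28 members were lower (25.5%, against 3.9% of all genes) and 0 higher (2.93% of all genes), where 6.83% of all genes passed either way. In 38 members the groups did not overlap and all zileuton mice were lower, which is 34.5% of members and 7.04% of all genes, and in 0 members were all higher (6.51% of all genes). Differences were small, with 104 of 110 members within 0.5 of 0 on the log2 scale, as were 92.8% of all genes.

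The nuclear members summed to 10226, 10175 and 10473 CPM in the controls and 9548, 9634 and 9390 CPM in the zileuton mice, without overlap and with a ratio of 0.925. By complex this ratio was 0.914 for complex I, 0.983 for complex II, 0.922 for complex III, 0.860 for complex IV and 0.958 for complex V, and only in complex II did the groups overlap. The 13 mitochondrial mRNAs summed to 35693, 35277 and 40613 CPM in the controls and 27737, 36488 and 37366 CPM in the zileuton mice. The groups overlapped: zileuton replicate A lay below all controls, while replicates B and C lay within their range. These sums leave out the nuclear copies, and mt-Co2 added 0 counts to them.

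Fold changes rose with the length of the gene in this comparison. Across all genes tested, which are not independent replicates, Spearman's rho of log2 fold change and length was 0.378 (n = 17363), and across the members 0.462 (n = 110), each over the same 6 libraries. With all genes cut into deciles of length, the median was -0.149 in the shortest and 0.130 in the longest decile, and 75 of the 110 members lay in the shortest. Members are short: their median length was 847 bases against 3987 for all genes, as the deposited TPM imply. Nuclear members under 1000 bases had a median of -0.176 and were below 0 in 93.4%, and all genes of that length had a median of -0.164 and were below 0 in 76.6%. Nuclear members of 1000 to 2000 bases had a median of -0.078 and were below 0 in 100.0%, where all genes of that length had -0.102 and 72.9%. Nuclear members of 2000 bases or more had a median of -0.038 and were below 0 in 88.2%, where all such genes had 0.026 and 43.4%. In the 3 classes, from short to long, 42.6%, 10.0% and 0.0% of nuclear members were lower at an unadjusted p under 0.05 (edgeR). For all genes of these lengths the shares were 15.1%, 7.76% and 2.43%. Lower without overlap were 52.5%, 20.0% and 11.8% of nuclear members, against 22.1%, 14.3% and 4.72% of all genes. With the length trend taken out of each library, the median over members was 0.002 and the count of lower members at an unadjusted p under 0.05 was 6 in place of 28.

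**Figure D5:**
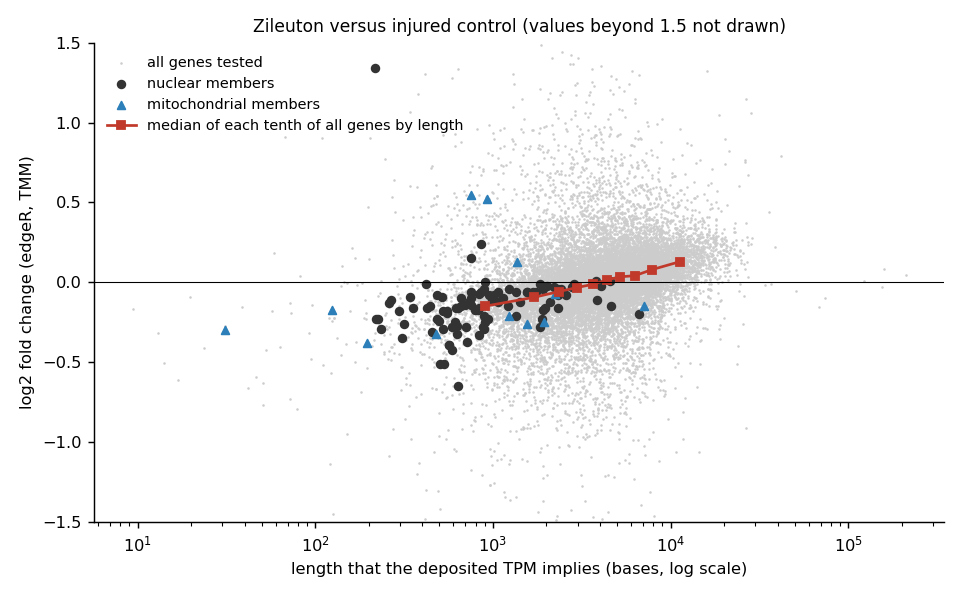
Log2 fold change (y axis) of zileuton versus injured control against the length implied by the deposited TPM (x axis, log scale) for all genes tested in grey, nuclear members in black and mitochondrial members in blue, with the median of each length decile of all genes in red. The red line runs from -0.149 in the shortest to 0.130 in the longest decile, and most members sit at its short end.

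Several small subunits were separated between the groups. Of the genes given next, Cox7a2 was named by its role and the others after their values were seen. Uqcrb, which binds ubiquinone in complex III, was at 64.2, 53.2 and 66.9 CPM in controls and 39.5, 43.0 and 46.8 CPM in zileuton mice (log2 fold change -0.51, standard error 0.107, adjusted p = 0.713). Cox7a2 was at 77.4, 77.9 and 81.4 against 59.6, 59.1 and 65.0 CPM (-0.37, standard error 0.0698, adjusted p = 0.713). Both had their highest zileuton mouse below their lowest control. In complex I, Ndufa6 was at 66.1, 65.7 and 65.8 against 56.2, 49.9 and 41.2 CPM (-0.42), and Ndufa2 at 50.5, 56.8 and 63.2 against 44.8, 41.8 and 43.9 CPM (-0.39). Ndufaf8, an assembly factor of complex I, had the lowest log2 fold change of any member, -0.65, but its groups overlapped at 11.1, 7.98 and 6.95 against 7.89, 5.34 and 3.31 CPM (adjusted p = 0.713).

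The values of several large catalytic subunits overlapped. Sdha was at 418, 433 and 421 against 408, 432 and 440 CPM (log2 fold change 0.01, standard error 0.0738). Atp5b was at 1090, 1060 and 1050 against 1050, 1080 and 1050 CPM (-0.01, standard error 0.0779), and Atp5a1 at 948, 989 and 944 against 964, 1000 and 938 CPM (0.01). The groups overlapped in all 3. Ndufs1 had -0.02, Ndufv1 -0.03, Uqcrc1 -0.04, Uqcrfs1 -0.04, Sdhb -0.06, Cox4i1 -0.06, Atp5c1 -0.06, Ndufs8 -0.08 and Cox5a -0.14 as log2 fold changes, with adjusted p from 0.717 to 0.957. Among these, Ndufs8 and Cox5a were lower in all zileuton mice than in the controls. Of the 14 core subunits of complex I, 4 were lower without overlap (28.6%, against 7.04% of all genes). In edgeR 1 was lower at an unadjusted p under 0.05 (7.14%, against 3.9% of all genes).

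Among the isoforms, Cox6b2 was at 2.19, 2.86 and 4.07 CPM in controls and 3.06, 3.74 and 2.27 CPM in zileuton mice (log2 fold change -0.01, standard error 0.284), and Cox7a1 at 0.789, 1.20 and 2.0 against 1.22, 1.29 and 1.19 CPM (-0.11, standard error 0.355). Neither gene, each of which rose after TBI in the 2018 batch, separated the zileuton from the control mice. Cox8b had the highest log2 fold change of any member, 1.34, at 0.0343, 0.372 and 0.392 against 0.954, 0.817 and 0.279 CPM, which overlapped (standard error 0.701, adjusted p = 0.713). Atp5g2 was at 8.88, 11.8 and 8.74 against 11.7, 10.3 and 13.0 CPM (0.24), Atp5g1 had 0.00 and Atp5g3 -0.17. Cox6a1 and Cox8a were at -0.39 and -0.51, with injured control replicate A far above the other controls in both (309 against 224 and 206 CPM, and 177 against 110 and 106 CPM). Cox8c was at 0 counts in every library.

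The mitochondrial mRNAs of 2022 depended on which gene a read was given to. mt-Co2 had 0 counts in all 6 libraries, whereas its copy Gm28661 had 122376, 138054 and 136713 counts in controls and 90925, 122516 and 115944 counts in zileuton mice. mt-Co3 held 1.81% of the counts it shared with Gm28437, and mt-Atp6 0.892% of those it shared with Gm10925, whereas in 2018 these shares were 57.4% and 40.0%. mt-Atp6 itself had 979, 843 and 69 counts against 0, 2803 and 1 counts. With the copies added, mt-Co2 had a log2 fold change of -0.26, mt-Atp6 of -0.28 and mt-Co3 of -0.20 (adjusted p = 0.718, 0.722 and 0.737), where mt-Co3 alone had 0.52 and mt-Atp6 alone 0.55, so their direction turned with the assignment. On log2(TPM + 1) with limma mt-Atp6 alone had -2.74.

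Of the 7 mRNAs without a full copy, mt-Co1 was at 13700, 13800 and 15300 against 11600, 14600 and 14700 CPM (-0.07). It held 93.1% of the counts shared with its partial copy Gm29216, and with the copies added it had -0.08 (adjusted p = 0.892 in edgeR). mt-Nd5 was at 11300, 10700 and 12500 against 8390, 11100 and 11500 CPM (-0.15). mt-Cytb had -0.26, mt-Nd4 -0.25, mt-Nd1 -0.21, mt-Nd6 -0.32 and mt-Nd2 0.13, with adjusted p from 0.713 to 0.872. In these 7 mRNAs apart from mt-Nd2, zileuton replicate A was the lowest of the 6 libraries, and without it the median over the mitochondrial members went from -0.189 to -0.050. mt-Atp8 had the highest TPM of any member, a mean of 33300, with an implied length of 31 bases, and mt-Co1 a mean of 18300.

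The pathway lists of this comparison gave 0 calls at the adjusted threshold in edgeR. At an unadjusted p under 0.05, 8 of 78 mitochondrial ribosomal proteins were lower and 0 higher (71 below 0, median -0.10), where 3.9% of all genes were lower at that p and 49.3% below 0. All genes of 1000 to 2000 bases, the class that holds this list's median length of 1507 bases, had a median of -0.102 and were below 0 in 72.9%. By the same p 3 of 38 other assembly factors, 2 of 16 genes for mitochondrial DNA, 1 of 16 electron carriers, 1 of 18 citric acid cycle genes and 1 of 10 carriers were lower. Of the 17 glycolysis genes tested 0 passed in either direction, and of 8 regulators 1 was higher (2.93% of all genes were). Atpif1 averaged 111 ± 2.04 CPM in controls and 93.9 ± 3.34 CPM in zileuton mice (SD, n = 3 each; -0.24, unadjusted p = 0.00503 and adjusted p = 0.713 in edgeR). Neuron markers summed to 9190 to 11000 CPM in controls and 9800 to 11100 CPM in zileuton mice, and red blood cell genes to 216 to 342 against 191 to 206 CPM. Their part was not tested.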

How the data were processed

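Poly(A) RNA of brain tissue was sequenced as read pairs in 12 libraries (4 groups of 3). The authors deposited raw counts and FPKM for the 2018 batch and expected counts, rounded here, with TPM for the 2022 batch. The submitters' processing notes name HISAT2, featureCounts, Subread, DESeq2 and GRCm39, and versions and strand setting are not given in the sources used here. Between 62.3% and 64.4% of counts up to 20 were even in 2018, so a count need not be 1 molecule. Columns of the 2022 table could not be tied to single labels and are called A, B and C. After filterByExpr, edgeR 4.0.16 (glmQLFTest, TMM scaling) gave the tests, with p-values adjusted over all genes tested. The estimated counts replaced the raw counts that the plan assumed. Symbols and positions came from GENCODE M21 on GRCm38, promoters from RefSeq. Alternatives used DESeq2 1.42.0 and limma 3.58.1. Fits were tested on simulated data. No column of values was left unused (0). The members, lists and named genes (core subunits, isoforms, mitochondrial mRNAs, the highest member and the 2 largest calls each way per complex) were chosen with earlier results of these data known. No paired values are used, because same-numbered libraries did not deviate together.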

Additional observations from a re-analysis of the deposited data

How the results depend on the processing

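With 1 choice changed at a time, the 13 calls of TBI versus sham became 6 with the replicate number as a block, whose same-numbered libraries correlated at -0.0944 to -0.0228 in 2018 and -0.282 to 0.0628 in 2022 and so did not pair, and 3 to 12 with 1 library left out. The 9 higher calls became 14 with limma on log2(FPKM + 1) and on log2(FPKM + 0.1), 2 with the length trend removed, 5 with the replicate block and 2 to 9 with a library left out. The 4 lower calls became 1 with library totals, 7 with DESeq2's test, 2 with at least 10 counts in every library, 0 with limma on log2(FPKM + 1), on log2(FPKM + 0.1) and without a filter, 1 with the equal-variance test on FPKM, 13 with the length trend removed, 1 with the replicate block and 0 to 3 with a library left out. The median log2 fold change over members, -0.006, went to -0.084 and the mitochondrial one, -0.181, to -0.296 with the length trend removed, and the latter ran from -0.242 to -0.164 with a library left out. Of the 13 members called, 0 changed sign under any alternative, and of 41 named members not called 21 did.

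For zileuton versus injured control, DESeq2's test called 2 members, both lower (2 lower), where edgeR called 0. The 28 lower members at an unadjusted p under 0.05 became 10 with limma on log2(TPM + 1), 9 on log2(TPM + 0.1), 10 without a filter, 14 with the equal-variance test on TPM and 6 with the length trend removed. The median over members, -0.150, became -0.05, -0.054 and -0.048 with these limma fits, -0.05 with the equal-variance test and 0.002 with the length trend removed. The mitochondrial median, -0.189, became -0.142 with each limma fit, -0.063 with the equal-variance test, -0.04 with the length trend removed, -0.258 with the replicate block, and -0.294 to -0.05 with 1 library left out. Of 50 named members, 28 changed sign under an alternative. The cause of these shifts was not tested. Each group has 3 libraries, and Cox8b in 2022 and Cox4i2 in both batches rest on few counts. Full nuclear copies of at least 99% identity limit 5 mitochondrial mRNAs, and partial copies of that identity cover parts of mt-Co1 and mt-Nd4.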
